A study of Mus musculus with 12 samples.

Results

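The enterocyte brush border genes examined here are 10 mouse genes: Alpi, Anpep, Mep1a, Mep1b, Lct, Sis, Dpp4, Treh, Clec2h and Ada. They were chosen by name, with earlier results of these data known. Of these, 8 were measured by 11 probe sets, out of 17097 genes in the table; Lct (lactase) and Sis (sucrase-isomaltase) were not analysed here. Untreated primary cells of the mouse small intestine had been isolated as 6 populations: Mex3a high, Mex3a low and Mex3a negative, each with Lgr5 high or Lgr5 low. Lgr5 is a receptor found on crypt base stem cells, and the Mex3a protein binds RNA. Each population was taken from the biological replicates MR793 and MR820, which gives 12 Affymetrix arrays with n = 2 per population, each from 2000 cells amplified over 22 cycles. The labels give no strain, age, genotype or reporter, and the sources used here do not say how the Mex3a and Lgr5 gates were set. The arrays lie on 3 strips, and the Lgr5 gate and the strip largely cannot be told apart, since only the Mex3a-high cells of MR820 have both Lgr5 gates on 1 strip.

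Absorptive enterocytes arise from crypt stem cells and carry a dense layer of apical microvilli, the brush border, in which digestive enzymes are anchored with their active sites facing the lumen. These enzymes split peptides, disaccharides and phosphate esters next to the transporters that take up the products. Their genes are weakly expressed in crypt stem cells and are switched on as cells leave the crypt for the villus, so they are commonly used to read absorptive differentiation. Among the 10, Anpep (aminopeptidase N), Dpp4 (dipeptidyl peptidase 4) and the meprin subunits Mep1a and Mep1b act on peptides. Alpi is the intestinal alkaline phosphatase, Treh (trehalase), Lct and Sis split disaccharides, Clec2h is a C-type lectin-like surface protein, and Ada is the adenosine deaminase of purine breakdown.

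The values are log2 RMA values, on which a difference of 1 is a 2-fold change. Array medians lay between 5.83 and 6.04. In MR793, the array of Mex3a-high Lgr5-high cells stood apart, with correlations of 0.896 to 0.916 to the other arrays, against 0.971 to 0.996 among the other 11. Lgr5 lay at 8.999 to 10.21 in the 6 Lgr5-high arrays and at 6.37 to 8.05 in the 6 Lgr5-low arrays, with no overlap. The probe set used for Mex3a lay between 5.44 and 6.35 on all arrays and did not order the Mex3a gates: in MR820 it read 5.84 in Mex3a-high and 5.91 in Mex3a-negative Lgr5-high cells. The population names are therefore those of the labels alone. Of 8 general enterocyte markers 7 were measured (Fabp1, Fabp2, Apoa1, Apoa4, Krt20, Vil1 and Rbp2), and their mean ranged from 8.62 to 11.55 over the arrays, so enterocyte transcripts were present in every population. Fewer enterocytes in a population and less enterocyte RNA per cell cannot be told apart in such bulk samples.

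The brush border genes were lowest in Mex3a-low Lgr5-high cells. This was the lowest population for 6 of 8 measured genes (Alpi, Anpep, Mep1b, Treh, Clec2h and Ada), both by the population mean and in each replicate taken alone. For Ada in MR820 the margin was narrow, with 8.98 against 9.01 in Mex3a-low Lgr5-low cells. Among all genes, 9.91% had their lowest population mean in Mex3a-low Lgr5-high cells and 2.33% had this population as the lowest array of both replicates. The genes were chosen with earlier results of these data known, so such shares, here and below, are a description. Mep1b, Clec2h, Treh and Alpi were 4.33 to 4.83 times lower there than in Mex3a-negative Lgr5-high cells, and Anpep was 1.99 times lower. In MR793 the arrays of these populations share a strip. In MR820 no other array lies on the strip of the Mex3a-low Lgr5-high cells, so population and strip cannot be told apart within that replicate. With limma and Benjamini-Hochberg adjustment over all 17097 genes, none of the 8 was called at an adjusted p under 0.05 in any of the 9 comparisons below.

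**Figure D1:**
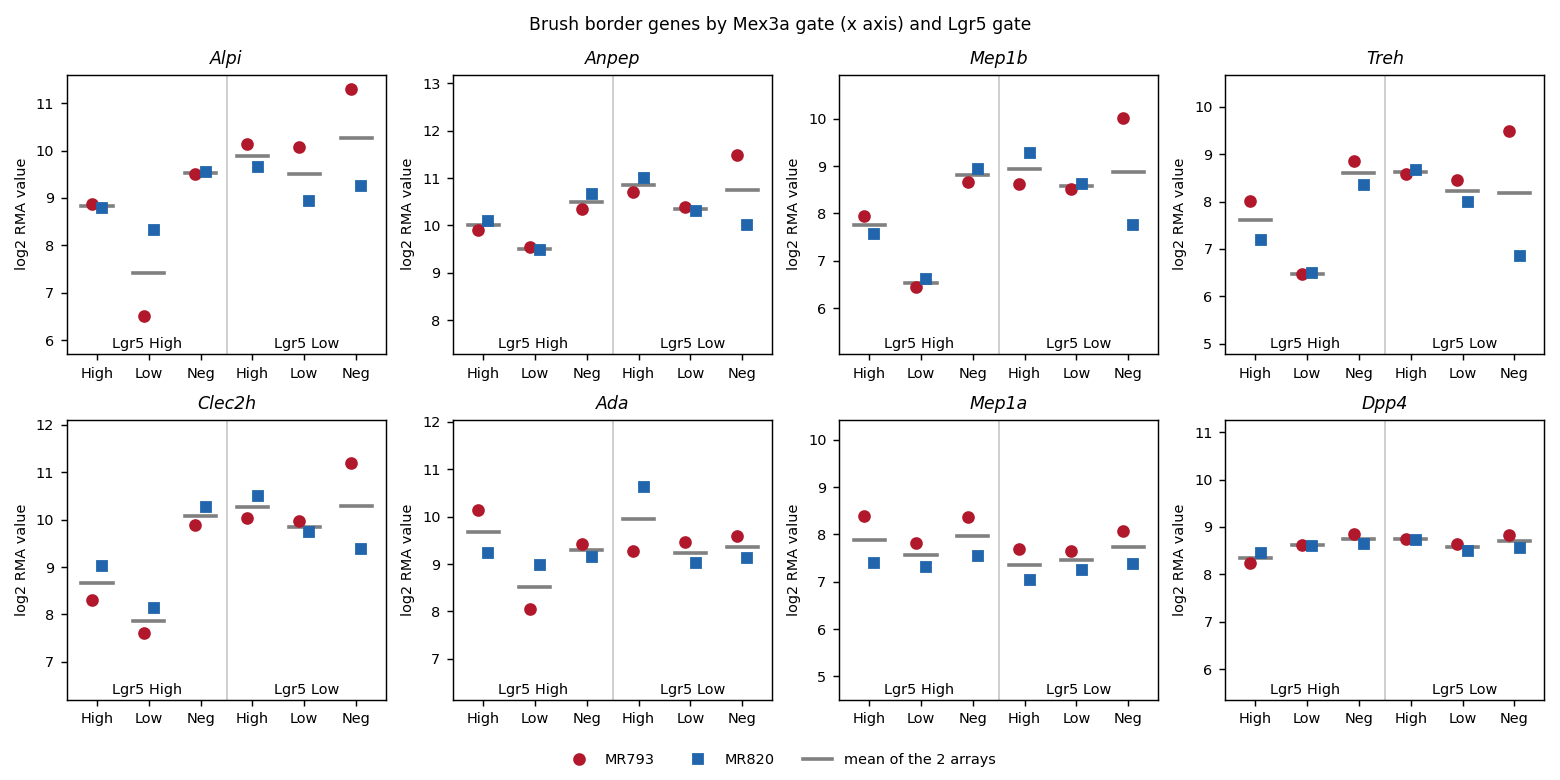
Log2 RMA value (y axis) of the 8 measured genes in each array, by Mex3a gate (x axis) within the Lgr5-high and Lgr5-low gates; circles are MR793, squares MR820 and bars the mean of both arrays, and every panel spans the same height. In 6 of the 8 panels the Mex3a-low Lgr5-high population has the lowest mean, and the circle and square lie far apart in Mex3a-negative Lgr5-low cells for Alpi, Anpep, Mep1b, Treh and Clec2h.

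In the following, pairs of values are MR793 and then MR820. Alpi (Entrez gene 76768), a phosphatase held in the apical membrane by a lipid anchor, read 8.88 and 8.80 in Mex3a-high, 6.51 and 8.31 in Mex3a-low and 9.51 and 9.54 in Mex3a-negative cells with Lgr5 high. With Lgr5 low it read 10.15 and 9.64 in Mex3a-high, 10.08 and 8.94 in Mex3a-low and 11.30 and 9.25 in Mex3a-negative cells. Both Mex3a-low Lgr5-high arrays lay below every other array, though they differed from each other by 1.80. From the highest to the lowest population mean Alpi covered 2.87 log2 units, the widest span of the 8.

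Anpep (Entrez gene 16790), which removes amino acids from the ends of peptides, read 9.91 and 10.10, then 9.55 and 9.47, then 10.34 and 10.66 in Mex3a-high, -low and -negative Lgr5-high cells. In Lgr5-low cells it read 10.71 and 10.99, then 10.38 and 10.31, then 11.50 and 9.9998. Its span over population means was 1.34, and the 2 lowest populations, Mex3a-low and Mex3a-high with Lgr5 high, did not overlap their neighbours in the order of means. The 4 populations above them overlapped one another in turn.

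Mep1b (Entrez gene 17288), the membrane-bound beta subunit of meprin, read 7.95 and 7.57 in Mex3a-high, 6.45 and 6.61 in Mex3a-low and 8.66 and 8.95 in Mex3a-negative Lgr5-high cells. The Lgr5-low populations read 8.61 and 9.27, 8.53 and 8.62, and 10.01 and 7.75 in the same order. Within Lgr5-high cells the 3 Mex3a gates did not overlap and ran from low through high to negative. Treh (Entrez gene 58866), which splits trehalose, had the same order in that gate, with 8.01 and 7.20 in Mex3a-high, 6.47 and 6.49 in Mex3a-low and 8.85 and 8.34 in Mex3a-negative cells. In Lgr5-low cells Treh read 8.59 and 8.67, 8.47 and 7.99, and 9.49 and 6.85. The last pair, from Mex3a-negative cells, spans most of the range of Treh over all 12 arrays.

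Clec2h (Entrez gene 94071), known as a ligand of a receptor family of natural killer cells, was read by 3 probe sets. The one with the highest mean gave 8.31 and 9.01 in Mex3a-high, 7.61 and 8.13 in Mex3a-low and 9.88 and 10.27 in Mex3a-negative Lgr5-high cells. In Lgr5-low cells it gave 10.03 and 10.51, 9.97 and 9.74, and 11.19 and 9.39. The other 2 probe sets followed it over the 12 arrays, with Pearson correlations of 0.966 and 0.981, and were also lower in Mex3a-low than in Mex3a-negative Lgr5-high cells in both replicates, by -1.33 and -1.97 on average against -2.20 for the one used. In the dimmest of the 3, the lowest MR793 array was that of Mex3a-high Lgr5-high cells (6.20, against 6.40 in Mex3a-low cells).

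Ada (Entrez gene 11486), whose product is an enzyme of the cytoplasm rather than of the membrane, followed another course. It read 10.13 and 9.23, 8.05 and 8.98, and 9.43 and 9.14 in Mex3a-high, -low and -negative Lgr5-high cells, and 9.27 and 10.62, 9.46 and 9.01, and 9.59 and 9.12 in Lgr5-low cells. The replicates disagreed on its highest population: Mex3a-high Lgr5-high cells in MR793 (the array that stood apart) and Mex3a-high Lgr5-low cells in MR820.

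Mep1a (Entrez gene 17287) encodes the alpha subunit of meprin, which pairs with the beta subunit. It read 8.38 and 7.39, 7.83 and 7.32, and 8.37 and 7.55 in Mex3a-high, -low and -negative Lgr5-high cells. It read 7.68 and 7.03, 7.65 and 7.25, and 8.07 and 7.38 in Lgr5-low cells. All 6 populations overlapped their neighbours in the order of means, and in each the MR793 array was the higher.

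Dpp4 (Entrez gene 13482), a peptidase that removes dipeptides after proline or alanine, moved least. Its brighter probe set read 8.25 and 8.45, 8.62 and 8.61, and 8.85 and 8.65 in Mex3a-high, -low and -negative Lgr5-high cells, and 8.75 and 8.72, 8.64 and 8.49, and 8.83 and 8.56 in Lgr5-low cells. Its population means span 0.40. A second Dpp4 probe set stayed between 4.71 and 5.11, near the lower quartile of the arrays (4.80 to 5.07), and correlated with the first at 0.346.

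Alpi, Anpep, Mep1b, Treh and Clec2h moved together over the 12 arrays. The 10 pairwise Pearson correlations among these 5 ranged from 0.837 (Alpi and Treh) to 0.956 (Anpep and Mep1b), with a median of 0.892. Between them and Mep1a, Dpp4 or Ada the 15 correlations ranged from -0.08 to 0.612. The subunits of meprin stood on opposite sides of this divide, with a correlation of 0.106 between Mep1a and Mep1b. The 5 genes were grouped after their values had been seen and the arrays share strips and replicates, so these correlations are a description. Without the array that stood apart the ranges were 0.843 to 0.988 and 0.140 to 0.743.

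The sequence before the start of these genes was available for 9 of the 10 from RefSeq (GRCm38.p6). The windows of Alpi, Treh and Clec2h, which moved together, are shown with that of Mep1a, which did not. Each is the 250 bases before the annotated start, written 5′ to 3′ on the strand of the gene. Alpi lies at chr1:87101607-87101856 (minus strand), Treh at chr9:44672983-44673232 (plus strand), Clec2h at chr6:128662135-128662384 (plus strand) and Mep1a at chr17:43502774-43503023 (minus strand). Capitals mark the matches to the motifs named after them.
Alpi: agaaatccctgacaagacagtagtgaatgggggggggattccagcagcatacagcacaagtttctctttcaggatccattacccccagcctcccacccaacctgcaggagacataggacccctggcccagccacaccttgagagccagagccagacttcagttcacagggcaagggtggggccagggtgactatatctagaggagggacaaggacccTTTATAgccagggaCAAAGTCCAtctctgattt
Treh: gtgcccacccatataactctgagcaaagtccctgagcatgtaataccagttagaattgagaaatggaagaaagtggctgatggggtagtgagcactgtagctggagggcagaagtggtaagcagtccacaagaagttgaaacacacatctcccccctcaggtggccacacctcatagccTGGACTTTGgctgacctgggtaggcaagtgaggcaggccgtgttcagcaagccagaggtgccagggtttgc
Clec2h: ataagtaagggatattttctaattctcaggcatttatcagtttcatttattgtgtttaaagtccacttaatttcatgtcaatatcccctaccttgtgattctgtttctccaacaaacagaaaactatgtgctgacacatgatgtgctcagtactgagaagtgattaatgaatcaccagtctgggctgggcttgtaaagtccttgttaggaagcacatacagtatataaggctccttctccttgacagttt
Mep1a: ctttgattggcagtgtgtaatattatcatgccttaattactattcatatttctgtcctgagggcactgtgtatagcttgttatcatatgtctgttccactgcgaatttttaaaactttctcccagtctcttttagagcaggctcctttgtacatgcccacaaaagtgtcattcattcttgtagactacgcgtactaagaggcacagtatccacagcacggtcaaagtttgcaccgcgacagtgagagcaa

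Motifs of 5 kinds of factor were searched for on both strands, as exact letters. These were CAAAGTCCA for HNF4 (a nuclear receptor), GTTAAT for HNF1, TTTATG for CDX, AGATAA for GATA factors and TATAAA for the TATA box. Alpi and Treh both held the HNF4 motif, Alpi 19 bases before the start on the strand of the gene and Treh 71 bases before it on the other strand. Of 32536 distinct windows of this length, 0.387% held it. Alpi also held the TATA box motif on the other strand, 33 bases before the start, as did 12.3% of windows in either orientation. None of the 5 motifs was found in these exact letters in the windows of Clec2h, Mep1a, Anpep or Ada. Variant spellings of the sites were not searched for. Dpp4 held GATA and TATA box motifs, at 32 and 227 bases, which 9.97% and 12.3% of windows held. The motifs were chosen with the windows in view, and a match describes letters and not a bound site.

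The first question of the design is how Mex3a gates differ among Lgr5-high cells. Between Mex3a-low and Mex3a-negative Lgr5-high cells all 8 genes had lower means in Mex3a-low cells, with a median difference of -1.55, where the median over all genes was 0.01. For 7 of the 8 (all but Mep1a) both Mex3a-low arrays lay below both Mex3a-negative arrays, which held for 15.1% of all genes. The difference was -2.27 ± 0.58 (moderated SE) for Mep1b, -2.20 ± 0.51 for Clec2h, -2.12 ± 0.68 for Treh, -2.11 ± 0.71 for Alpi and -0.99 ± 0.38 for Anpep. Of all genes 0% were called in this comparison, and limma's adjusted p was 1.00 for each of the 8. At an unadjusted p under 0.05 these 5 genes passed, among 79 of 17097 in all. Ada differed by -0.77, Mep1a by -0.39 and Dpp4 by -0.14, each less than 2 of its standard errors.

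The replicates gave like sizes for most of the 5, within a strip in MR793 and between strips in MR820. Mep1b was lower by -2.21 in MR793 and -2.33 in MR820, Clec2h by -2.27 and -2.14, Treh by -2.38 and -1.86, and Anpep by -0.80 and -1.19. Alpi was lower by -3.00 and -1.22, so MR793 weighs most in its mean. Over 20 other settings of the fit the differences kept their sign for all of the 8 but Mep1a, and none was called.

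Mex3a-high cells lay between these populations for the genes that moved together. Against Mex3a-negative Lgr5-high cells, which also serve as the reference of the preceding comparison, 7 of 8 genes had lower means, with a median of -0.59 beside 0.07 over all genes. Clec2h differed by -1.41 ± 0.51, with a limma adjusted p of 0.505 and lower values in both replicates (-1.57 and -1.26). It was the only one of the 8 at an unadjusted p under 0.05, as were 661 genes in all, and 0% of all genes were called. Mep1b differed by -1.05, Treh by -0.998, Alpi by -0.68, Anpep by -0.50, Dpp4 by -0.40, Mep1a by -0.07 and Ada by 0.39. The Mex3a-high and Mex3a-negative arrays of each replicate share a strip here. With the MR820 array of Mex3a-high Lgr5-high cells left out, Clec2h (-1.77, limma adjusted p = 0.0256) and Dpp4 (-0.50, 0.0218) were called lower, together with 62.3% of all genes.

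Against Mex3a-low Lgr5-high cells, Mex3a-high cells had higher means for 7 of 8 genes, and again 0% of all genes were called. The differences were 1.43 for Alpi, 1.22 for Mep1b, 1.17 for Ada, 1.12 for Treh, 0.79 for Clec2h, 0.50 for Anpep, 0.31 for Mep1a and -0.26 for Dpp4. Ada passed an unadjusted p of 0.05, with 2.08 in MR793 and 0.25 in MR820, and 621 genes did so in all. The MR793 value rests on the array that stood apart, and with its MR820 counterpart left out Ada was called, by 1.62 (limma adjusted p = 0.0243), together with 60.7% of all genes.

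**Figure D2:**
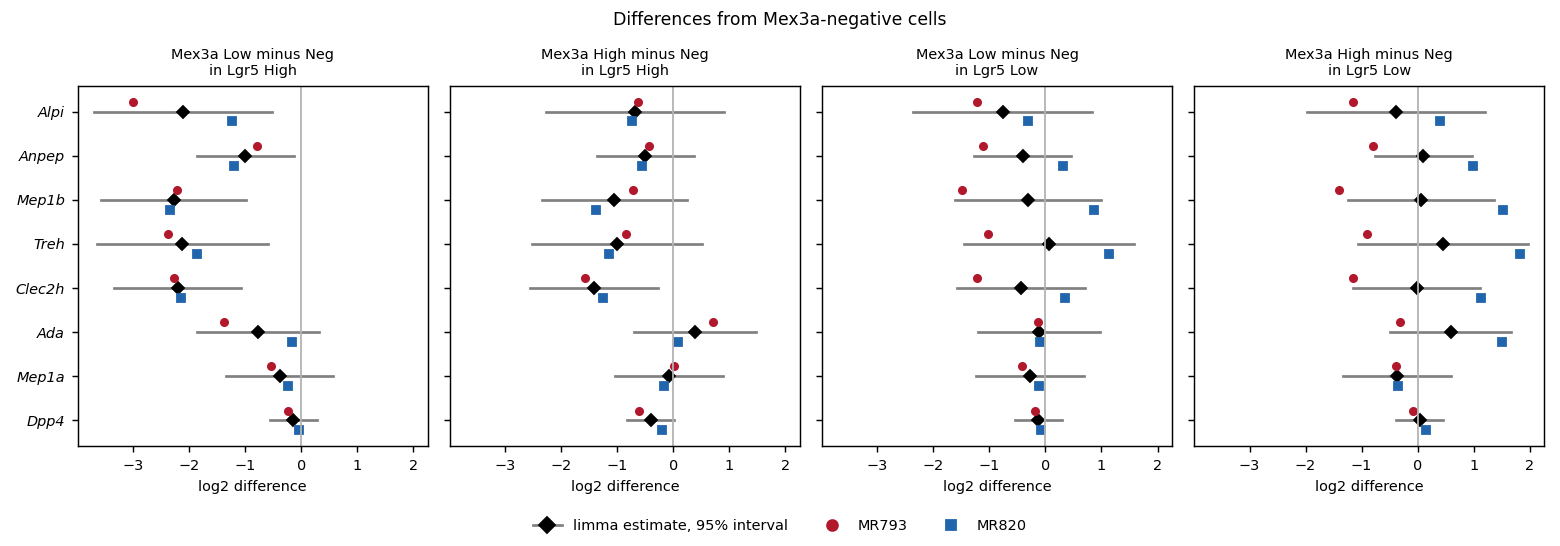
Log2 difference (x axis) of Mex3a-low or Mex3a-high from Mex3a-negative cells for each gene (y axis), within each Lgr5 gate; diamonds with lines are limma estimates with 95% intervals, circles MR793 and squares MR820. In the Lgr5-high gate both replicates lie below 0 for Alpi, Anpep, Mep1b, Treh and Clec2h, while in the Lgr5-low gate the Mex3a-high minus Mex3a-negative values of these genes lie below 0 in MR793 and above 0 in MR820.

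Among Lgr5-low cells the replicates disagreed on the Mex3a-high minus Mex3a-negative difference of the 5 genes that moved together. Between Mex3a-high and Mex3a-negative cells 1.73% of all genes were called and none of the 8, with a median of 0.05. Mep1b differed by -1.40 in MR793 and 1.52 in MR820, Treh by -0.90 and 1.82, Clec2h by -1.16 and 1.12, Alpi by -1.16 and 0.40 and Anpep by -0.79 and 0.99. All 5 thus had opposite signs in the replicates, and the 95% interval of the mean difference reached from -1.24 to 1.36 for Mep1b and from -1.16 to 1.12 for Clec2h. Between Mex3a-low and Mex3a-negative cells 0.0468% of genes were called and none of the 8 (median -0.29). There Anpep, Mep1b, Treh and Clec2h had opposite signs in the replicates, while Alpi (-1.22 and -0.31), Mep1a (-0.42 and -0.12), Dpp4 (-0.19 and -0.07) and Ada (-0.13 and -0.11) were lower in Mex3a-low cells in both. Between Mex3a-high and Mex3a-low cells 0.889% were called and none of the 8 (median 0.39), with higher means in Mex3a-high cells for all but Mep1a. In that last comparison, which leaves the Mex3a-negative cells out, Alpi differed by 0.07 and 0.70, Anpep by 0.33 and 0.68, Mep1b by 0.09 and 0.65, Treh by 0.12 and 0.69 and Clec2h by 0.06 and 0.77, so all 5 had the same sign in both replicates. None of the 8 passed an unadjusted p of 0.05 in these 3 comparisons, as 1145, 202 and 797 genes of the table did.

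The opposite signs go with 1 population. In Mex3a-negative Lgr5-low cells MR793 exceeded MR820 by 2.64 for Treh, 2.26 for Mep1b, 2.05 for Alpi, 1.80 for Clec2h and 1.50 for Anpep, and by 0.70 for Mep1a, 0.48 for Ada and 0.27 for Dpp4. A gap of at least 1 in this direction was found for 5 of the 8 genes and for 1.65% of all genes. Both arrays lie on strip 3. In MR793 this array was the highest of all for Alpi, Anpep, Mep1b, Treh and Clec2h; in MR820 it ranked second lowest for Treh and Anpep.

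Marker lists of other cells differed between the same 2 arrays. From MR793 to MR820 the mean of the 7 enterocyte markers went from 11.55 to 9.68, of 6 stem cell markers from 9.41 to 10.09, of 4 goblet cell markers from 11.63 to 10.83, of 3 Paneth cell markers from 8.06 to 8.49 and of 6 leukocyte markers from 6.13 to 6.44. Among the Paneth cell markers Lyz1 went the other way, from 7.82 to 7.63. The leukocyte mean moved mainly by Lyz2, from 9.97 to 11.71. Ptprc (3.96 and 4.04), Cd3e (5.04 and 4.94), Cd8a (6.54 and 6.65), Itgam (4.66 and 4.72) and Cd79a (6.59 and 6.56) changed little. The 5 tuft cell markers were alike at 5.94 and 5.93, and the 5 enteroendocrine markers lay at 7.05 and 6.27. The part of such differences in the values of the brush border genes was not tested.

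Averaged over the Mex3a gates, 7 of 8 genes had lower means in Lgr5-high than in Lgr5-low cells, with a median difference of -0.71 beside 0.04 over all genes. Of all genes 1.38% were called, 43 higher and 193 lower, and none of the 8. Clec2h differed by -1.27 ± 0.29 (limma adjusted p = 0.0826), Alpi by -1.30 ± 0.41 (0.232), Mep1b by -1.10 ± 0.33 (0.211), Anpep by -0.64 ± 0.22 (0.291) and Treh by -0.78 ± 0.39 (0.465). The first 4 of these passed an unadjusted p of 0.05, as did 1984 genes in all. Ada differed by -0.35, Dpp4 by -0.10 and Mep1a by 0.29. With the strip as a block the difference was -1.39 for Mep1b, -1.09 for Treh, -0.99 for Clec2h, -0.77 for Alpi and -0.54 for Anpep. It was -1.05 for Ada, -0.04 for Dpp4 and 0.04 for Mep1a. Standard errors were larger with this block, at 0.67 for Mep1b and 0.57 for Clec2h. Within strip 2, where the Mex3a-high cells of MR820 can be compared, Mep1b differed by -1.71, Clec2h by -1.50, Treh by -1.48, Ada by -1.39, Anpep by -0.89, Alpi by -0.85, Dpp4 by -0.27 and Mep1a by 0.35. Between strips, the Mex3a-high cells of MR793 gave 0.86 for Ada, the opposite sign.

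For Alpi, Anpep, Mep1b, Treh and Clec2h the Lgr5 difference was in the same direction in both replicates for Mex3a-high and Mex3a-low cells, and not for Mex3a-negative cells. In Mex3a-low cells it was -3.57 and -0.63 for Alpi, -2.07 and -2.01 for Mep1b, -1.99 and -1.50 for Treh, -2.36 and -1.61 for Clec2h and -0.84 and -0.83 for Anpep. In Mex3a-negative cells it was -1.79 and 0.29 for Alpi, -1.35 and 1.19 for Mep1b, -0.64 and 1.49 for Treh, -1.31 and 0.88 for Clec2h and -1.15 and 0.66 for Anpep. Without the Mex3a-negative Lgr5-low array of MR820, 4 genes were lower in Lgr5-high cells (Anpep, Mep1b, Treh and Clec2h, with limma adjusted p-values of 0.00850, 0.00533, 0.0189 and 0.00739), where 1.91% of all genes were called. In that fit the differences were -1.57 for Clec2h, -1.65 for Alpi, -1.48 for Mep1b, -0.89 for Anpep and -1.22 for Treh. Without the MR793 array of the Mex3a-negative Lgr5-low cells the differences were smaller. They were -0.97 for Clec2h, -0.96 for Alpi, -0.73 for Mep1b, -0.39 for Anpep and -0.34 for Treh. The calls made without the MR820 array did not hold there, so they depend on which array of this population was left out. With the MR820 array of Mex3a-high Lgr5-high cells left out, 4 were called lower (Alpi, Anpep, Mep1b and Clec2h), together with 54.5% of all genes.

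**Figure D3:**
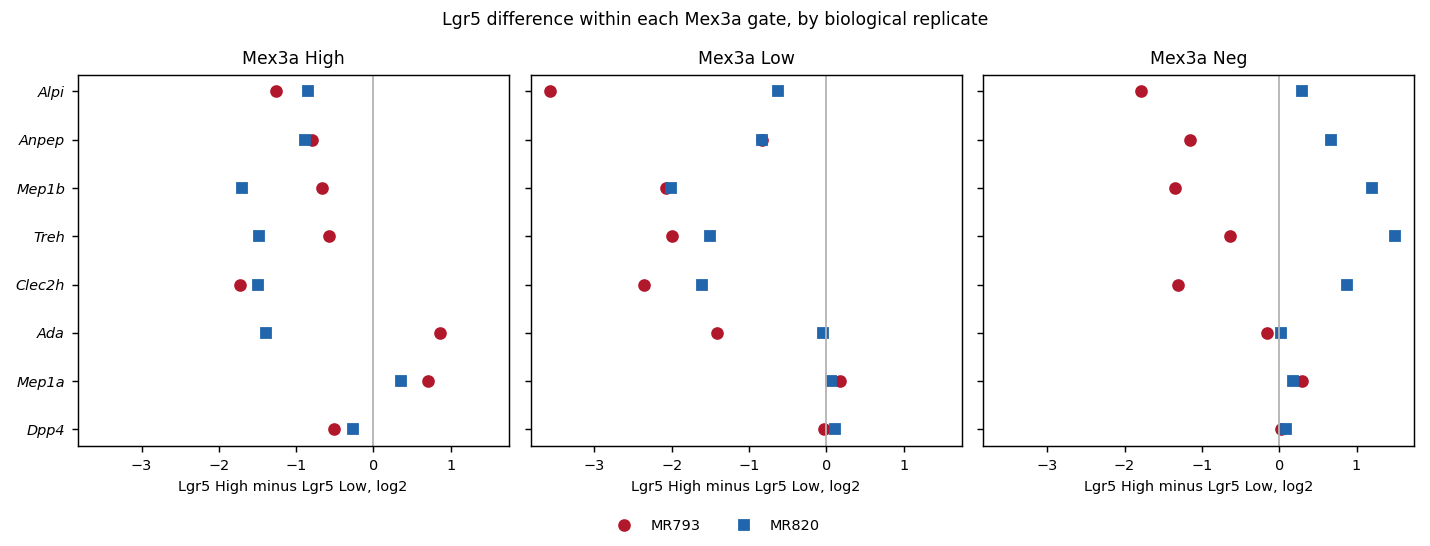
Lgr5-high minus Lgr5-low difference in log2 RMA value (x axis) for each gene (y axis) within each Mex3a gate; circles are MR793 and squares MR820. For Alpi, Anpep, Mep1b, Treh and Clec2h all points lie below 0 in Mex3a-high and Mex3a-low cells, and in Mex3a-negative cells the MR793 points lie below 0 and the MR820 points above it, while Mep1a lies above 0 in every panel.

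The test over all 6 populations called 1.25% of genes and none of the 8, with the smallest limma adjusted p for Clec2h (0.182), then Mep1b (0.403) and Alpi (0.655). These 3 passed an unadjusted p of 0.05, as did 1020 genes in all. Without the Mex3a-negative Lgr5-low array of MR820 it called 4 (Anpep, Mep1b, Treh and Clec2h) and 1.22% of all genes, and without the MR793 array of that population it called 2 (Mep1b and Clec2h) and 0.983% of all genes. With array weights it called Mep1b and Clec2h and 4.85% of all genes. The same 2 were called, with 58.3% of all genes, when the MR820 array of Mex3a-high Lgr5-high cells was left out. Leaving an array out leaves its population with 1 array, which is then assumed to vary like the others. For Mex3a-negative Lgr5-low cells this takes the wide gap between their arrays out of the estimated spread. For Mex3a-high Lgr5-high cells without MR820, the array that remains is the one that stood apart. The test of whether the Mex3a-high minus Mex3a-negative difference itself differs between the Lgr5 gates called 0.398% of genes and none of the 8, none of which passed an unadjusted p of 0.05 (634 genes did). Its estimates were -1.46 for Treh, -1.40 for Clec2h and -1.11 for Mep1b, with 95% intervals that include 0.

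Mep1a set the replicates apart in every population. It was higher in MR793 in 6 of 6 populations, by 0.68 ± 0.11 on average (limma adjusted p = 0.0598, 73rd smallest p of 17097 genes), and 0.357% of genes were called. The difference was 0.51 within strip 1, in Mex3a-low Lgr5-high cells, and 0.70 within strip 3, in Mex3a-negative Lgr5-low cells. Without the array that stood apart it was 0.61 ± 0.08 with an adjusted p of 0.00132, and 7.79% of all genes were called. Treh differed by 0.72 ± 0.33 (limma adjusted p = 0.505) and was higher in MR793 in 4 of 6 populations. Mep1a was also higher in Lgr5-high than in Lgr5-low cells in every same-replicate pair, by 0.07 to 0.70, a difference that was 0.04 with the strip as a block. Anpep and Mep1b were lower in Lgr5-high cells in both replicates of the Mex3a-high and Mex3a-low gates, and Dpp4 in both of the Mex3a-high gate and 1 of the Mex3a-low gate.

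Other genes of the apical surface were read from lists written from general knowledge, with earlier results of these data known. Between Mex3a-low and Mex3a-negative Lgr5-high cells, means were lower in Mex3a-low cells for 10 of 13 other brush border hydrolases (median -0.64), 15 of 17 apical nutrient transporters (-0.38), 15 of 18 genes of microvillus structure (-0.20) and 10 of 16 enterocyte transcription factors (-0.05). No list member was called there. The 7 enterocyte markers were all lower, with a median of -2.35. Krt20, a keratin of differentiated epithelium, read 7.03 and 7.56 in Mex3a-low and 9.76 and 10.14 in Mex3a-negative cells, with no overlap. Rbp2, which carries retinol inside enterocytes, read 7.01 and 7.97 against 10.09 and 9.59.

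Between the Lgr5 gates, Lgr5-high cells had lower means for 11 of 13 other hydrolases (median -0.28), 15 of 18 microvillus genes (-0.50), 14 of 17 transporters (-0.40), 9 of 16 transcription factors (-0.08) and 7 of 7 enterocyte markers (-1.09). The genes called lower were Cdhr2 (-0.73 ± 0.14, limma adjusted p = 0.0401), a cadherin that links microvilli, Mall (-1.11 ± 0.18, 0.0199), a membrane protein, Npc1l1 (-1.20 ± 0.21, 0.0258), the cholesterol transporter, and Krt20 (-1.66 ± 0.28, 0.0235). Npc1l1 read 6.04 to 7.38 in the 6 Lgr5-high arrays and 7.49 to 8.81 in the 6 Lgr5-low arrays, with no overlap. With the strip as a block limma called 0 genes of the table in this comparison, with 456 at an unadjusted p under 0.05. Stem cell markers ran the other way, with 6 of 6 higher in Lgr5-high cells and 4 called, beside 1.38% of all genes. Lgr5, which names the gate, is among the 4, so its own difference follows from the sorting.

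In Lgr5-low cells, Plb1, a phospholipase of the brush border, and Espn, which bundles actin in microvilli, were called higher in Mex3a-high cells than in those negative for Mex3a, by 1.23 ± 0.23 (limma adjusted p = 0.0236) and 2.60 ± 0.38 (0.00599). Both were also called against Mex3a-low cells. The Mex3a-high Lgr5-low arrays were also the highest for the mean of 5 tuft cell markers (11.19 and 11.18, against 5.62 to 9.28 in the other 10 arrays) and of 5 enteroendocrine markers (11.15 and 10.72, against 6.17 to 10.01). The part of tuft or enteroendocrine cells in the Plb1 and Espn values was not tested.

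**Figure D4:**
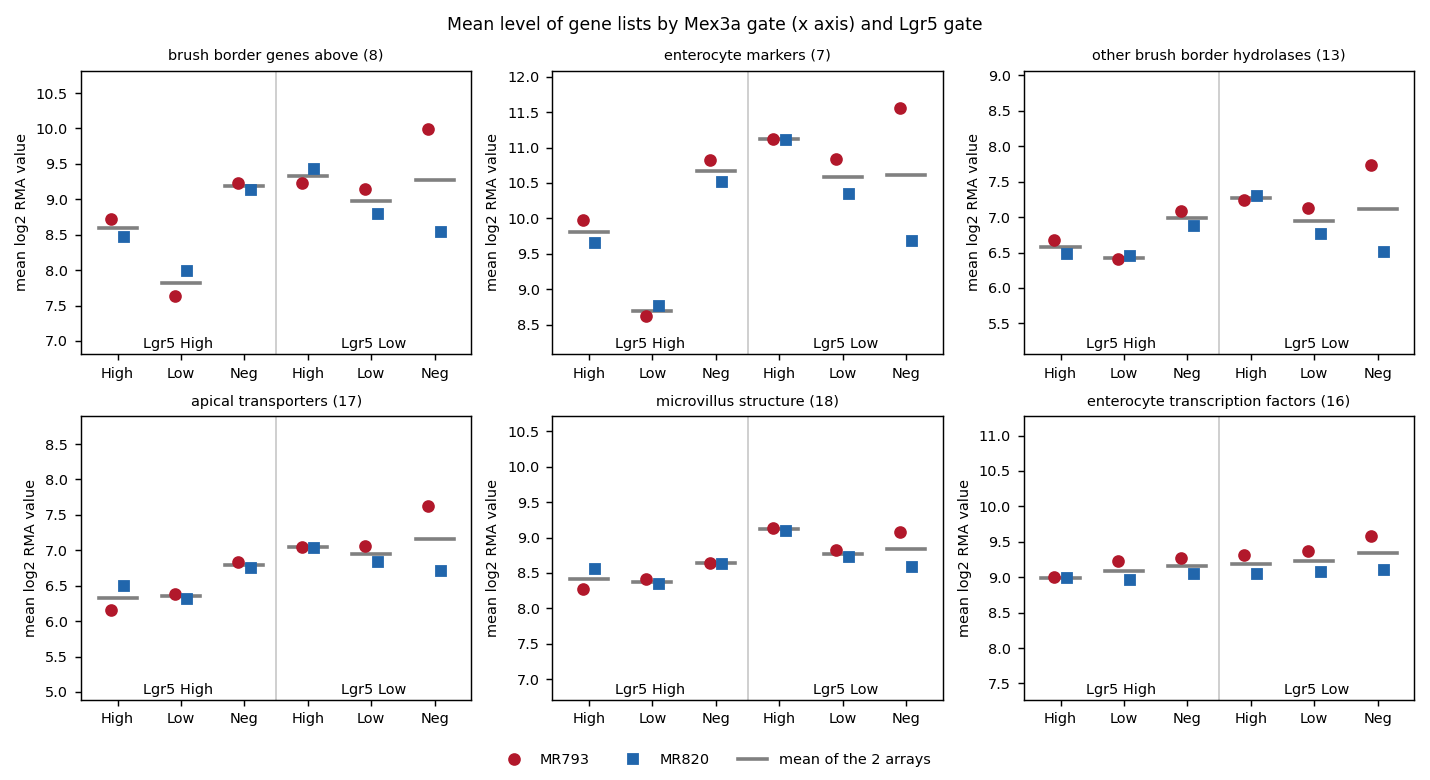
Mean log2 RMA value (y axis) of the 8 measured genes and of 5 further lists in each array, by Mex3a gate (x axis) within each Lgr5 gate; circles are MR793, squares MR820, bars their mean, and the number of genes is given in each title. The Mex3a-low Lgr5-high arrays are lowest for the first panels, the brush border genes (7.63 and 7.99) and the enterocyte markers (8.62 and 8.76), while the transcription factors cover a narrow range.

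Markers of Paneth and tuft cells had higher means in Mex3a-low than in Mex3a-negative Lgr5-high cells, opposite to the brush border genes. The mean of the 3 measured Paneth cell markers was 10.23 and 10.21 in Mex3a-low and 9.02 and 9.32 in Mex3a-negative cells, and 3 of 3 were higher in Mex3a-low cells. The 5 tuft cell markers had means of 6.53 and 6.18 against 5.88 and 5.62, with 5 of 5 higher, and the 5 enteroendocrine markers of 6.44 and 6.17 against 6.50 and 6.72. None of these was called. Stem cell markers lay at 10.89 and 10.97 against 10.91 and 10.93. Leukocyte markers lay at 6.64 and 6.69 against 6.66 and 6.65. Goblet cell markers lay at 10.54 and 9.52 against 10.14 and 10.21, and 5 mesenchymal and endothelial markers at 6.03 and 6.05 against 5.97 and 5.97. The part of these cells in the brush border values was not tested.

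The genes most like the mean of the 8 were sought among 1750 genes whose population means span at least 1, by Pearson correlation over the 12 arrays. Rbp2 came first at 0.985, followed by Nat8 (0.944), Slc27a4 (0.936), Apoc3 (0.936), Apoc2 (0.934), Apoa1 (0.933), Krt20 (0.933), Slc51b (0.932), Hsd17b6 (0.932) and 2010106E10Rik (0.930). Slc27a4 takes up fatty acids, Apoc3, Apoc2 and Apoa1 are lipoprotein components, and Slc51b is a subunit of the basolateral bile acid exporter. For single genes the closest were Gsta2 (0.974) and Akp3 (0.959) for Alpi, Nat8 and Cyp3a11 (both 0.961) for Anpep, Slc51b (0.975) and Rbp2 (0.953) for Mep1b, Apoc2 (0.978) and Apoc3 (0.972) for Treh, and Slc43a2 (0.983) and Cyp3a13 (0.979) for Clec2h. Akp3 is a close relative of Alpi, and how far its probes also read Alpi transcripts was not tested.

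The 3 genes outside this pattern had other neighbours. Mep1a was closest to Hes1 (0.917), a target of Notch signalling, and Rgcc (0.850). Over the 6 population means, which average out the replicate difference of Mep1a, these correlations were 0.848 and 0.753. Dpp4 was closest to Cyp4v3 (0.904) and Tmem236 (0.873), and Ada to Clca4a (0.892) and Plekhg6 (0.769). For Dpp4 these correlations were 0.811 and 0.760 without the array that stood apart.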

How the data were processed

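RNA from 12 samples, isolated with magnetic beads and amplified per the labels' protocols, was measured on Affymetrix arrays. The authors deposited 1 log2 value per probe set and array, and the submitters' processing notes name RMA as the tool (version not given in the sources used here), and these were used unchanged. Of 45141 probe sets, 28898 were annotated to 1 gene, 551 to several and 15692 were not listed in the probe table used here. For a gene with several such probe sets the one brightest on average was used, which gives 17097 genes. RMA gives a value to a probe set without signal and compresses differences between dim genes.

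Each gene was fitted as 6 population means over all 12 arrays with limma 3.58.1 (R 4.3.3; lmFit and eBayes with a trend; 6 residual and 3.44 prior degrees of freedom), with Benjamini-Hochberg adjustment over 17097 genes and calls at an adjusted p under 0.05. The number of arrays limits the precision, and each p-value sets a difference against the spread between these samples. The main fit has no replicate block, so this spread includes the difference between MR793 and MR820. The fit was tested on simulated data, and the outcome is not reported here. By the design text all populations came from both replicates, which pairs them: replicate differences of 14 of 15 pairs of populations correlated over 0.1 (lowest -0.115, median 0.382). The alternatives were replicate and strip blocks, array weights, the mean of probe sets, renormalizations, a filter, no trend, and each array left out; the difference between MR793 and MR820 comes from the replicate block and was added after seeing the data.

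The 10 genes and all lists were chosen with earlier results of these data known. Named genes are the 10, up to 4 of each list with the smallest p over the 6 populations, list members called where 5 or fewer, and the 10 genes most like the mean and 2 most like each gene.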

Additional observations from a re-analysis of the deposited data

Results flagged for a closer look

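For Dpp4 the Mex3a-high minus Mex3a-low difference had opposite signs in the Lgr5 gates in both replicates, with a mean of -0.26 in Lgr5-high cells (-0.37 and -0.16) and of 0.17 in Lgr5-low cells (0.11 and 0.23). Each mean has a moderated SE of 0.19, and the MR793 value in Lgr5-high cells rests on the array that stood apart. The dimmer Dpp4 probe set gave means of -0.04 and 0.03. The difference between the gates was not tested.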

How the results depend on the processing

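With the replicate block, the paired fit, 0 of the 8 brush border genes were called in each of the 9 comparisons, as without it, so the block changed no call. The same count of 0 held with the strip as a block, the mean of all probe sets, quantile normalization again, median centring, the filter on dim genes and no trend. With array weights the test over the 6 populations called 2. Leaving out each array in turn gave 0 to 4 genes called over the 6 populations and 0 to 4 between the Lgr5 gates. It gave 0 to 2 for Mex3a-high against Mex3a-negative and 0 to 1 for Mex3a-high against Mex3a-low Lgr5-high cells, and 0 in the other 5 comparisons. Of these, 2, 4, 2 and 1 calls came with the MR820 array of Mex3a-high Lgr5-high cells left out, when that population rests on the array that stood apart and 9323 to 10644 genes of the table are called. Of 1280 differences of single genes under alternatives, 45 had the other sign, 7 of them with all arrays, and none of these was called.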

Other observations

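Lct and Sis, for which no array value was analysed here, have windows of 250 bases before their start in the RefSeq table. Lct held the CDX motif once and the GATA motif at 90 and 101 bases before its start. Sis held the HNF1 motif at 165 bases, the CDX motif at 43 bases and the TATA box motif at 134 and 138 bases. Of all windows 6.47% held the HNF1 motif, 10.8% the CDX motif, 9.97% the GATA motif and 12.3% the TATA box motif, so single matches to these short motifs are common.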
